A study of Homo sapiens with 24 samples.

Results

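Aminoacyl-tRNA synthetases and the proteins that hold part of them in a complex make up 39 of the 58735 genes in the deposited expression table. They were chosen by gene name and not by a rule on their values, although earlier results of these data were known. They comprise 20 cytoplasmic enzymes or enzyme subunits, 16 mitochondrial enzymes (names ending in 2) and 3 scaffold proteins, AIMP1, AIMP2 and EEF1E1. RNA was sequenced from 2 established lines of human B cell precursor acute lymphoblastic leukaemia, Nalm6 and Sem, the second of which carries a rearranged KMT2A gene. Each line had 4 groups of 3 libraries: asparaginase, 10 µM ibrutinib, the 2 drugs together (called the combination here), and untreated cells. Treatment lasted 24 h, and the labels do not give the harvest time of untreated cells. For asparaginase the labels give 2 doses, 1 IU/ml among the characteristics of each sample but 0.5 IU/ml where the treatment is described, and which was used is not settled here. Asparaginase is an enzyme that breaks down asparagine outside the cell, and ibrutinib inhibits the kinase BTK of B cell receptor signalling. Each line is a single cell line, and the labels speak of triplicates without describing separate cultures, so p-values reflect the variation among libraries only, and that variation may be technical.

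Levels are in FPKM, read numbers scaled for gene length and library size. The deposited table had lost the decimal point of every value of 1 or more, and the values used here were restored from gene length and whole reads. Libraries held 15032899 to 18136263 reads assigned to genes, and the members had between 46 and 10467 reads in a library. All 39 members passed the filter of at least 1 FPKM in at least 3 libraries and were tested in every comparison by limma on log2(FPKM + 1), with Benjamini-Hochberg adjustment over all genes tested. "Rose", "fell" and "called" mean an adjusted p under 0.05, and log2 changes carry the standard error of the fit. All 8 B cell precursor markers reached 1 FPKM in at least 3 Nalm6 libraries, as did 7 of 8 in Sem, where the lowest averaged 0.163 FPKM. Of 5 myeloid markers 2 did so in each line, the highest being LYZ in Nalm6 (7.94 FPKM) and CSF1R in Sem (2.68). Of 5 T and NK cell markers 1 did so in each line, and NKG7 averaged 1.90 FPKM in Nalm6 and 15.5 in Sem. Of 6 erythroid and stromal markers 0 did so in Nalm6 and 1 in Sem, where PDGFRB averaged 9.60 FPKM. HOXA9 and MEIS1, which mark KMT2A-rearranged leukaemia, were listed at 0 in every Nalm6 library and averaged 9.63 to 27.7 FPKM in Sem. In Nalm6, the libraries untreated 2, asparaginase 1 and combination 1 each correlated less with the other 2 libraries of their group than those did with each other. Any group of 3 holds such a library, so the gap also had to pass a set minimum and exceed the difference between the 2 lower correlations. The highest correlations of these libraries were 0.985, 0.983 and 0.979, against 0.988, 0.986 and 0.986 between the other 2. Nalm6 counts are also given without the libraries that so stood apart.

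A tRNA synthetase joins an amino acid to its tRNA, which the ribosome then uses to place that amino acid in a protein. The cytoplasm and the mitochondrion mostly use separate enzymes, both encoded in the nucleus, although GARS and KARS each serve both compartments. EPRS, LARS, IARS, MARS, QARS, KARS, RARS and DARS sit in a multi-synthetase complex together with AIMP1, AIMP2 and EEF1E1. When amino acids run short, the kinase GCN2 senses uncharged tRNA, phosphorylates eIF2 and so raises translation of the transcription factor ATF4. ATF4 is known to induce many cytoplasmic synthetases, and 12 of the 20 were listed here as known targets: AARS, CARS, EPRS, GARS, IARS, LARS, MARS, NARS, SARS, TARS, WARS and YARS. The asparaginyl enzymes NARS and NARS2 use the amino acid that asparaginase removes, and QARS uses glutamine, which asparaginase preparations can also break down.

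ATF4 acts through composite elements whose core can be written TGATGNAA, and this core was searched on both strands of promoter windows from RefSeq (GRCh38.p14; 250 bases before to 50 after a start site, 1 or more windows per gene). Windows were given for 33 members, and 8 of them held the core in at least 1 window, against 1270 of all 35116 windows (3.62%) and 1217 of the 27305 genes with a window (4.46%). The 8 were 7 of the 16 cytoplasmic enzymes with a window, 1 of 14 mitochondrial enzymes and 0 of 3 scaffold proteins. The promoters of DARS, LARS, VARS, YARS, AARS2 and VARS2 were not analysed here. All 7 cytoplasmic matches were among the listed ATF4 targets, of which 10 had a window. The letters are a description of these windows and do not show that a factor binds there. The stretches below give each match in capitals with 20 bases on either side, on the strand that reads TGATGNAA, so that the shared core and its surroundings can be compared.
AARS (chr16:70289666-70289713, antisense to the gene): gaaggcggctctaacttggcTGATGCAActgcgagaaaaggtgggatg
CARS (chr11:3057398-3057445, antisense): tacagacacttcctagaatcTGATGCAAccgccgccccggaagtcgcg
GARS (chr7:30594825-30594872, antisense): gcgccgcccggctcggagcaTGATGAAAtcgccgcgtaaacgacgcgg
IARS (chr9:92293683-92293730, antisense): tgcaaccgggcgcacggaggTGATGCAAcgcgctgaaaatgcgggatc
MARS (chr12:57488044-57488091, antisense): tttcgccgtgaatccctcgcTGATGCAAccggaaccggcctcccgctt
NARS (chr18:57621795-57621842, sense): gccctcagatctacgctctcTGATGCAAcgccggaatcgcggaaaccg
TARS (chr5:33440947-33440994, antisense): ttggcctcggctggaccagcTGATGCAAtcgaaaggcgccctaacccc
YARS2 (chr12:32756067-32756114, sense): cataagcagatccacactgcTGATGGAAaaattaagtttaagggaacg

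In 6 of the 7 cytoplasmic enzymes the core read TGATGCAA, and in GARS it read TGATGAAA. It began 187 bases before the start site in AARS, 33 in GARS, 13 in IARS, 4 in MARS and 2 in CARS, and 14 bases after it in NARS and 2 in TARS. YARS2, a mitochondrial enzyme, held TGATGGAA 197 bases before its start. The whole NARS window (chr18:57621787-57622086, minus strand, core in capitals) is shown because the enzyme uses asparagine.
NARS: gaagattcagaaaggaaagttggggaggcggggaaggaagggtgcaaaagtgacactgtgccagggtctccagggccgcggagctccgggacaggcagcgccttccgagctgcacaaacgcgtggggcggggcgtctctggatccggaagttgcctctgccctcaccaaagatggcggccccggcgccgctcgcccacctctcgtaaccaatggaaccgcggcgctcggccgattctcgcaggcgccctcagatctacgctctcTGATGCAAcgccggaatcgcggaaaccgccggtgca

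WARS, the member with the largest change below, had no match in either of its windows. The downstream window (chr14:100375298-100375597, minus strand) is shown for comparison.
WARS: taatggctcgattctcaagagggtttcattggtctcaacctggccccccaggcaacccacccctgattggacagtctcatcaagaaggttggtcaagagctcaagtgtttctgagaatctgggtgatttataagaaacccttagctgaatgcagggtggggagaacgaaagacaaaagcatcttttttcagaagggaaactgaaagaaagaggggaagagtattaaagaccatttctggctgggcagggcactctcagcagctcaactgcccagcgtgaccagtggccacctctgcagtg

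Before treatment, the lines differed most in the enzymes for glycine, asparagine and leucine. GARS, the glycyl enzyme of both compartments, averaged 21.2 ± 1.36 FPKM in untreated Sem and 59.6 ± 2.55 in untreated Nalm6 (SD, n = 3 each; log2 difference -1.45 ± 0.043, limma adjusted p = 1.14e-16). NARS2, the mitochondrial asparaginyl enzyme, averaged 48.3 ± 0.539 FPKM in Sem and 22.4 ± 1.38 in Nalm6 (1.08 ± 0.0588, adjusted p = 2.55e-12). LARS, the cytoplasmic leucyl enzyme, averaged 36.7 ± 0.842 and 17.4 ± 0.895 FPKM in Sem and Nalm6 (1.03 ± 0.0525, adjusted p = 8e-13), and the scaffold protein AIMP2 17.2 ± 1.61 and 35.8 ± 1.21 (-1.02 ± 0.0715, adjusted p = 1.39e-10). AIMP2 shares 532 of its 1838 exonic bases with EIF2AK1 on the opposite strand, listed at 16.9 to 41.4 FPKM, and the part of such reads in any AIMP2 value was not tested. Of the 39 members 6 were higher and 20 lower in Sem, while over all genes 34.0% were higher and 31.8% lower. Among the enzymes lower in Sem were WARS, the tryptophanyl enzyme (-0.67), MARS2 (-0.68), VARS2 (-0.69) and EARS2 (-0.58), and QARS was higher (0.52).

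The cytoplasmic enzymes were the more abundant in both lines. Group means of cytoplasmic enzymes had a median of 38.3 FPKM in untreated Sem and 43.9 in untreated Nalm6, and ran from 7.06 (CARS, cysteinyl) to 70.4 FPKM (KARS, lysyl) in Sem and from 7.97 (CARS) to 72.6 (FARSA, a phenylalanyl subunit) in Nalm6. Mitochondrial enzymes had medians of 9.68 and 10.9 FPKM, with SARS2, the seryl enzyme, lowest in both lines (1.83 in Sem and 2.69 in Nalm6). The highest mitochondrial enzyme was NARS2 in Sem and IARS2, the isoleucyl enzyme (42.0 FPKM), in Nalm6.

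**Figure D1:**
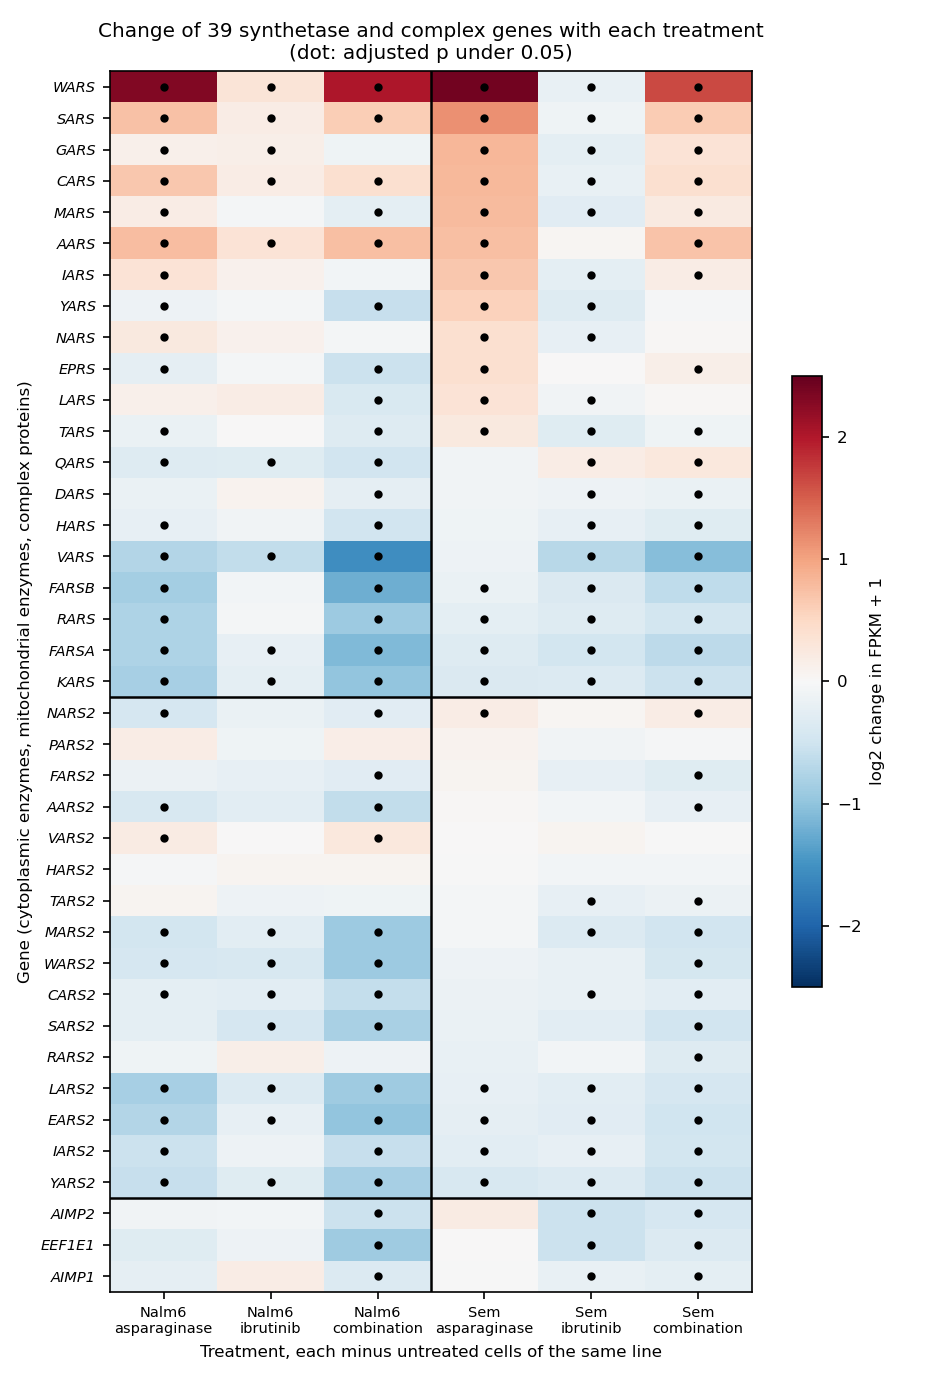
Log2 change of FPKM + 1 (colour) of the 39 genes (rows, in 3 blocks from top to bottom: cytoplasmic enzymes, mitochondrial enzymes, scaffold proteins) for each treatment minus untreated cells of the same line (columns); a dot marks an adjusted p under 0.05. WARS is the darkest red with asparaginase in Nalm6 (2.31) and Sem (2.42), and VARS is the darkest blue with the combination in Nalm6 (-1.55).

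Asparaginase split the cytoplasmic enzymes. The list of ATF4 targets was drawn up with earlier results of these data known, so counts by it are descriptions. In Sem, all 12 listed ATF4 targets rose (median log2 change 0.71), and of the other 8 cytoplasmic enzymes 4 fell, KARS, FARSA, RARS and FARSB, and 4 were not called. In Nalm6, 8 of the 12 rose, 3 fell (EPRS, TARS and YARS) and LARS was not called, and 7 of the other 8 fell (median -0.76), all but DARS. Across the cytoplasmic enzymes 12 rose and 4 fell in Sem, and 8 rose and 10 fell in Nalm6; over all genes tested 11.4% rose and 15.1% fell in Sem, and 28.2% rose and 28.0% fell in Nalm6. Without the 3 libraries that stood apart, 8 members rose and 21 fell in Nalm6, in place of 9 and 19. ATF4 mRNA rose by 0.44 in Sem and 0.25 in Nalm6, and that of the stress gene DDIT3 by 1.55 and 2.54. Values are relative to the total of a library, so less RNA per cell and fewer cells of a kind cannot be told apart.

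The direction of the Nalm6 group depended on the scaling of libraries. TPM rescaling set the median of all genes in Nalm6 with asparaginase to 0.17, and then 9 cytoplasmic enzymes were called higher and 5 lower, with a median of -0.00, while quantile normalization gave 10 and 5 with a median of 0.12, against -0.15 in the FPKM fit. Over all 39 members the Nalm6 split was 9 higher and 19 lower, 12 and 12 with TPM and 12 and 16 with quantile normalization. In Sem it was 13 and 8, 14 and 5 with TPM and 13 and 8 with quantile normalization. Shares of all genes in this report are from the FPKM fit on all libraries. Counts under other scalings, or with libraries left out, have no matching share beside them. YARS in Nalm6 turned to 0.015 with TPM and 0.13 with quantile normalization, and quantile normalization turned EPRS to 0.059 and TARS to 0.11. The median over the 12 listed ATF4 targets was positive in all 3 scalings, at 0.71, 0.81 and 0.78 in Sem and at 0.21, 0.37 and 0.50 in Nalm6 with FPKM, TPM and quantile normalization.

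WARS changed most. It had 77.8, 79.0 and 77.5 FPKM in the asparaginase libraries of Nalm6, against 14.7, 14.5 and 15.8 in the untreated ones (log2 change 2.31 ± 0.0408, limma adjusted p = 1.34e-10). In Sem it had 53.6, 52.2 and 52.8 FPKM with asparaginase, against 8.49, 8.99 and 9.74 untreated (2.42 ± 0.0559, adjusted p = 3.47e-10). The groups lay far apart in both lines, and only 6 of 13237 genes in Nalm6 and 5 of 13417 in Sem had a higher log2 change. WARS (ENSG00000140105) lies on chromosome 14 (GRCh38, 100333788 to 100376805, minus strand), and the antisense gene AL157871.4 shares 385 of its 6358 exonic bases; that gene was listed at 0.924 to 28.7 FPKM, and whether the libraries kept strand is not stated, so reads of the pair may not be told apart there.

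SARS, the cytoplasmic seryl enzyme (ENSG00000031698, chromosome 1, 109213918 to 109238169, plus strand), had 80.8, 80.3 and 85.8 FPKM with asparaginase in Sem, against 36.6, 35.4 and 38.5 untreated (1.14 ± 0.0405, adjusted p = 1.37e-08). The Nalm6 libraries had 81.9, 80.4 and 81.3 FPKM with asparaginase, against 47.6, 49.6 and 48.2 (0.73 ± 0.0483, adjusted p = 4.93e-07). Treated libraries of the 2 lines had similar SARS levels, while untreated ones were lower in Sem. AARS, the alanyl enzyme, averaged 96.5 ± 1.27 FPKM with asparaginase and 57.3 ± 3.53 untreated in Sem, and 89.5 ± 1.36 and 52.0 ± 2.13 in Nalm6 (SD, n = 3; log2 changes of 0.74 and 0.77). CARS rose by 0.81 in Sem and 0.67 in Nalm6. These were the cytoplasmic enzymes that rose by over 0.5 in both lines, together with WARS.

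GARS (ENSG00000106105, chromosome 7, 30594681 to 30634033, plus strand) rose mainly in Sem, with 37.8, 39.1 and 39.3 FPKM in asparaginase libraries, against 19.7, 22.1 and 22.0 untreated (0.84 ± 0.0466, adjusted p = 4.22e-07). Nalm6 values were 66.1, 65.7 and 64.7 FPKM, against 62.5, 57.6 and 58.8 (0.13 ± 0.0433, adjusted p = 0.0211). That small Nalm6 call was lost when untreated 2 or 3 or asparaginase 1 or 2 was left out (adjusted p = 0.0551 to 0.0751), and without the 3 libraries that stood apart (0.0521). MARS, the methionyl enzyme, rose by 0.79, IARS by 0.68 and YARS by 0.57 in Sem. MARS shares 355 of its 7028 exonic bases with DDIT3 on the opposite strand, which itself averaged 24.8 ± 3.89 FPKM with asparaginase and 7.78 ± 0.984 untreated in Sem, and the part of such reads in the MARS value was not tested.

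Of the 10 cytoplasmic enzymes that fell in Nalm6, 4 also fell in Sem, and their falls were larger in Nalm6 (differences of effects of 0.67 for FARSB, 0.46 for KARS, 0.47 for FARSA and 0.53 for RARS, Sem minus Nalm6, all called). FARSB, the beta subunit of the phenylalanyl enzyme (ENSG00000116120, chromosome 2, 222570536 to 222656337, minus strand), had 22.0, 18.9 and 18.5 FPKM with asparaginase, against 35.4, 37.4 and 35.7 untreated (-0.84 ± 0.0842, adjusted p = 1.02e-05). KARS (ENSG00000065427, chromosome 16, 75627474 to 75648643, minus strand) had 38.5, 37.0 and 36.6 FPKM, against 67.2, 69.4 and 65.0 (-0.83 ± 0.0417, adjusted p = 7.53e-08). No treated library reached an untreated one in either gene. FARSA, the alpha subunit, RARS, the arginyl enzyme, and VARS, the valyl enzyme, changed by -0.78, -0.78 and -0.73. In Sem the changes of FARSB, KARS, FARSA and RARS were -0.17, -0.37, -0.31 and -0.25, all called, and that of VARS was -0.12 (adjusted p = 0.0524).

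NARS, the cytoplasmic asparaginyl enzyme, rose in both lines, and QARS, the glutaminyl enzyme, fell in Nalm6. NARS (ENSG00000134440, chromosome 18, 57600656 to 57622213, minus strand) had 74.6, 73.3 and 74.9 FPKM with asparaginase in Sem, against 55.4, 55.8 and 55.7 untreated (0.41 ± 0.0347, adjusted p = 1.26e-05). In Nalm6 it had 87.0, 77.8 and 78.7 FPKM, against 66.8, 74.7 and 63.5 (0.25 ± 0.0878, adjusted p = 0.0326). Its groups did not overlap in either line, but the Nalm6 call was lost without untreated 1 (adjusted p = 0.0829), untreated 3 (0.118), asparaginase 1 (0.112) or asparaginase 3 (0.0516), and with no filter on low values (0.0568). QARS (ENSG00000172053, chromosome 3, 49095932 to 49105135, minus strand) had 57.2, 56.5 and 55.3 FPKM with asparaginase in Sem, against 58.4, 61.3 and 59.5 (-0.08, adjusted p = 0.0967), a direction that TPM (0.0049) and quantile normalization (0.050) turned. In Nalm6 it had 30.4, 33.7 and 34.9 FPKM, against 41.5, 40.3 and 41.8 (-0.31 ± 0.071, adjusted p = 0.00309).

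**Figure D2:**
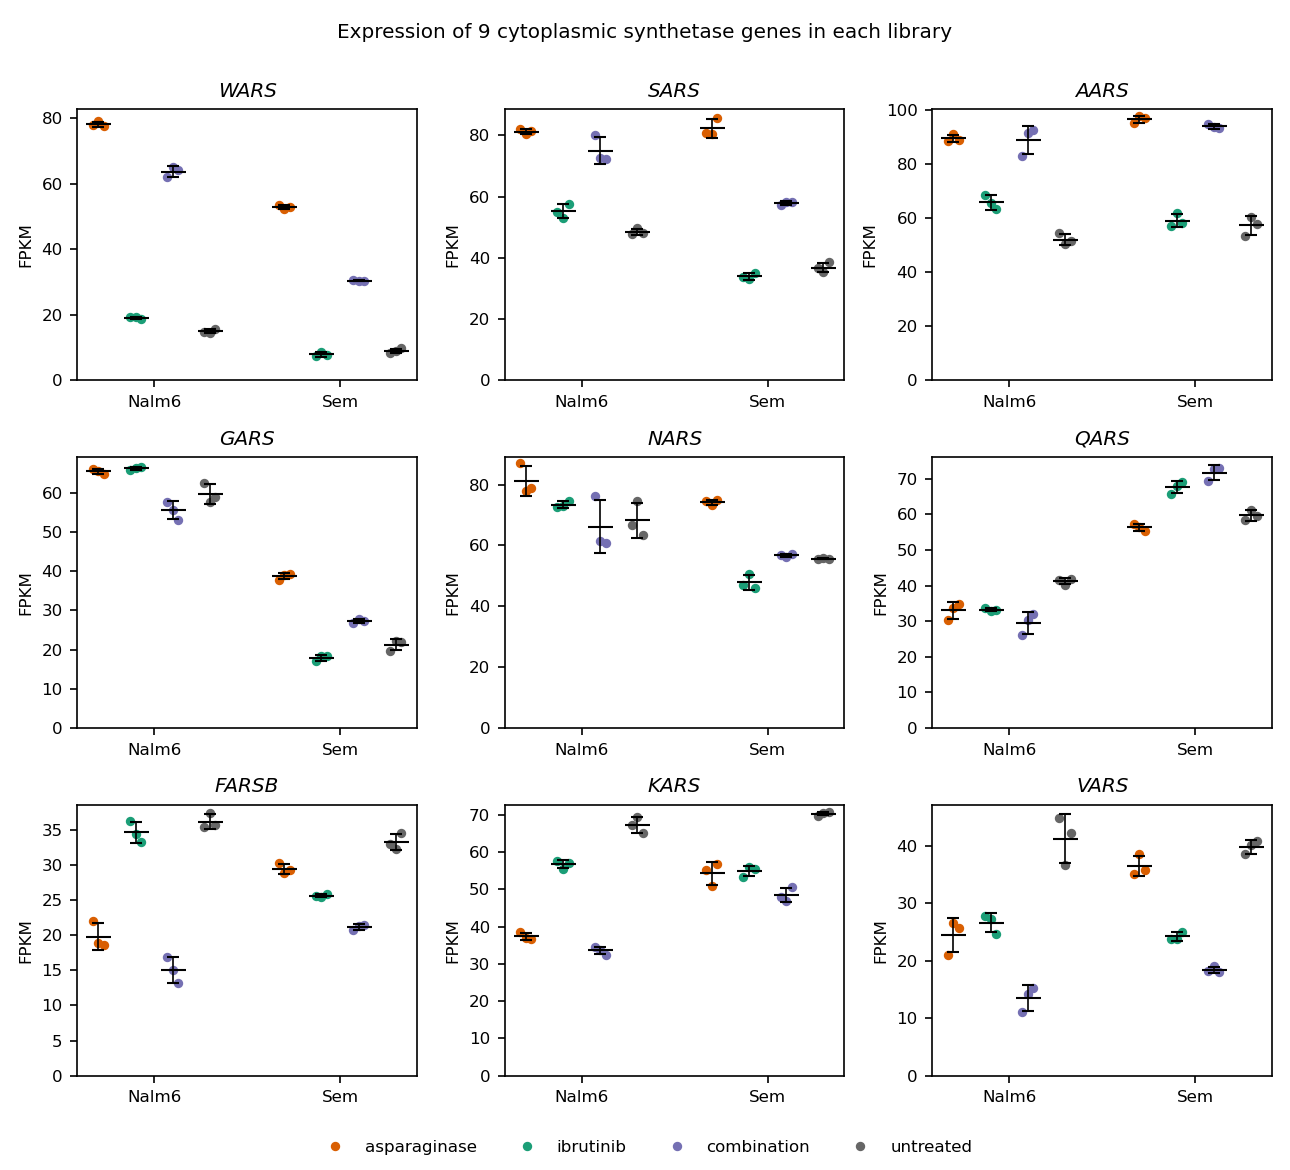
FPKM (vertical axis, from 0) of 9 cytoplasmic enzymes in every library, with asparaginase, ibrutinib, combination and untreated libraries from left to right within each line; points are libraries, the horizontal mark is the group mean and the bar is the SD (n = 3). In Nalm6 WARS stands at 78.1 FPKM with asparaginase, above all untreated libraries, while KARS stands at 37.4 with asparaginase and 67.2 untreated.

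Mitochondrial enzymes mostly fell or were not called with asparaginase. In Sem 1 of 16 rose and 4 fell, with a median of -0.10, and in Nalm6 1 rose and 9 fell, with a median of -0.32. Over all genes 11.4% rose and 15.1% fell in Sem, and 28.2% rose and 28.0% fell in Nalm6. These counts are from the FPKM fit, and in Nalm6 the counts over all members moved with the scaling of libraries, as given above. LARS2, the mitochondrial leucyl enzyme (ENSG00000011376, chromosome 3, 45388506 to 45549421, plus strand), had 5.73, 6.30 and 6.25 FPKM with asparaginase in Nalm6, against 12.4, 11.4 and 11.2 untreated (-0.84 ± 0.0548, adjusted p = 4.69e-07). EARS2, the glutamyl enzyme (ENSG00000103356, chromosome 16, 23522014 to 23557731, minus strand), had 5.51, 5.38 and 5.84 FPKM, against 9.98, 10.2 and 9.59 (-0.73 ± 0.0435, adjusted p = 2.33e-07). Treated and untreated libraries were well apart in both genes. YARS2 and IARS2 changed by -0.57 and -0.53. VARS2 rose by 0.20 (adjusted p = 0.0282), a call lost without untreated 2 (0.0631), untreated 3 (0.0737) or asparaginase 2 (0.114), after correction for GC content and length (0.309), and with the 3 libraries that stood apart left out (0.0538).

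YARS2 alone held the TGATGNAA core among the 14 mitochondrial enzymes with a promoter window. Its change was the most negative of the 16 mitochondrial changes in Sem. It (ENSG00000139131, chromosome 12, 32727490 to 32755902, minus strand) had 14.2, 11.8 and 13.2 FPKM with asparaginase, against 16.4, 16.9 and 19.0 untreated (-0.39 ± 0.0911, adjusted p = 0.00865). IARS2 (ENSG00000067704, chromosome 1, 220094102 to 220148041, plus strand) had 30.6, 31.0 and 31.7 FPKM, against 38.8, 35.8 and 38.4 (-0.27 ± 0.0385, adjusted p = 0.000507). The mitochondrial enzyme that rose in Sem was NARS2, with 57.0, 52.6 and 56.7 FPKM, against 48.9, 48.0 and 48.0 (0.19 ± 0.0353, adjusted p = 0.00232). In Nalm6 NARS2 fell, with 17.7, 16.6 and 15.1 FPKM, against 21.4, 24.0 and 21.8 (-0.42 ± 0.0747, adjusted p = 0.000619). None of the 3 scaffold proteins was called with asparaginase in either line by limma (at an unadjusted p under 0.05, AIMP2 was higher in Sem and AIMP1 lower in Nalm6).

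Among cytoplasmic enzymes with a promoter window, the 7 with the core all rose with asparaginase in Sem (log2 changes 0.24 to 0.84), and of the 9 without it 3 rose and 4 fell (-0.37 to 2.42). In Nalm6, 6 of the 7 rose and 1 fell (-0.17 to 0.77), and of the 9 others 2 rose and 7 fell (-0.84 to 2.31). The shares of all genes were 11.4% higher and 15.1% lower in Sem, and 28.2% and 28.0% in Nalm6. WARS and SARS, with the largest changes with asparaginase in Sem, were among those without the core, as was WARS in Nalm6. With ibrutinib, 0 of the 7 with the core rose and 6 fell in Sem, and 3 rose and 0 fell in Nalm6. Of the 9 without it, 1 rose and 7 fell in Sem, and 2 rose and 3 fell in Nalm6. Among all genes 20.3% were higher and 21.3% lower with ibrutinib in Sem, and 4.98% and 7.45% in Nalm6. With the combination, 5 of the 7 rose and 1 fell in Sem, and 2 rose and 2 fell in Nalm6. Of the 9 without the core, 4 rose and 5 fell in Sem, and 2 rose and 7 fell in Nalm6. Among all genes 26.6% were higher and 26.3% lower with the combination in Sem, and 32.4% and 31.3% in Nalm6. The listed targets and the windows with a core overlap in membership, so these counts are not independent of those above.

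The ratio of a cytoplasmic enzyme to the mitochondrial enzyme for the same amino acid, taken within each library, does not change when a whole library is multiplied by a constant. Over 17 such pairs (EPRS was set against both EARS2 and PARS2, and FARSA and FARSB each against FARS2), the asparaginase minus untreated difference of the mean log2 ratio had a median of 0.59 in Sem, with 12 higher and 5 lower, and 0.59 in Nalm6, with 10 higher and 7 lower. With 3 libraries a group an exact permutation test cannot give a two-sided p below 0.10, so the ratios are given as values. The WARS to WARS2 ratio was 9.55 ± 1.7 with asparaginase and 1.45 ± 0.065 untreated in Sem (SD, n = 3 each), and 21.7 ± 2.0 and 2.91 ± 0.14 in Nalm6. For alanine the AARS to AARS2 ratio was 7.19 ± 0.63 with asparaginase and 4.36 ± 0.30 untreated in Sem, and 6.85 ± 0.83 and 2.96 ± 0.085 in Nalm6. For asparagine, NARS to NARS2 was 1.34 ± 0.047 with asparaginase and 1.15 ± 0.016 untreated in Sem, and 4.94 ± 0.26 and 3.05 ± 0.11 in Nalm6. The pairs that moved the other way were led by VARS to VARS2 in Nalm6, at 2.66 ± 0.28 with asparaginase and 5.27 ± 0.50 untreated.

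**Figure D3:**
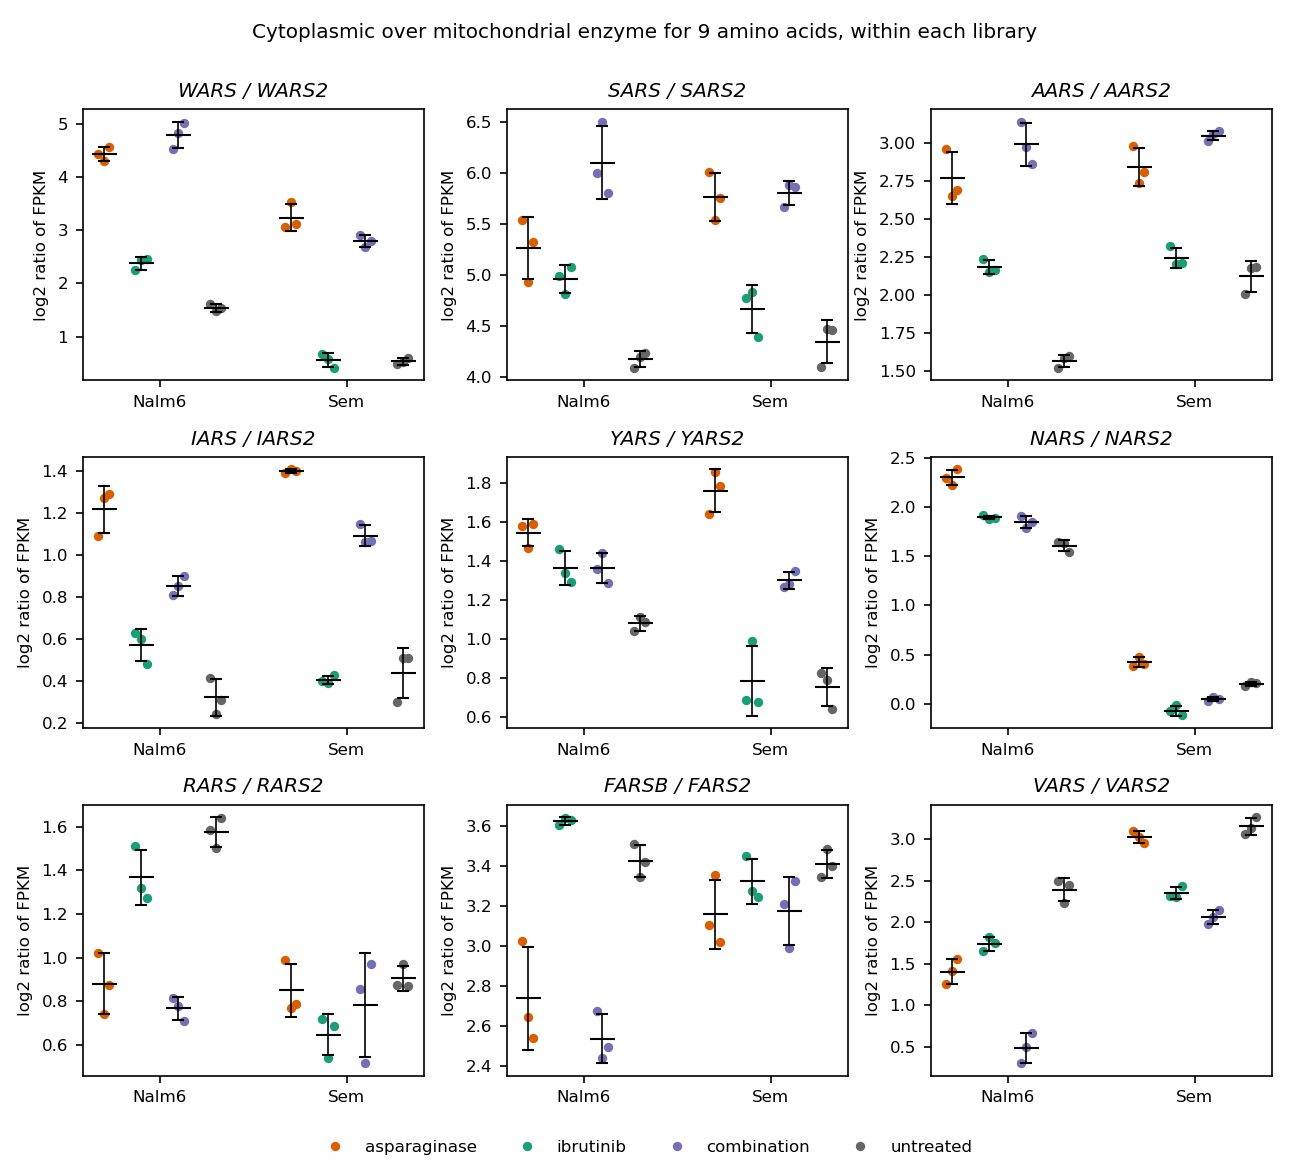
Log2 ratio of the FPKM of the cytoplasmic over the mitochondrial enzyme (vertical axis, a separate range in each panel) for 9 amino acids in every library, with asparaginase, ibrutinib, combination and untreated libraries from left to right within each line; points are libraries, marks are group means and bars the SD (n = 3). For WARS over WARS2 the asparaginase libraries of Nalm6 lie between 4.30 and 4.57 and the untreated ones between 1.47 and 1.61.

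Ibrutinib alone lowered most cytoplasmic enzymes in Sem and changed them in both directions in Nalm6 (median log2 changes -0.22 and -0.02). Mitochondrial enzymes had similar medians in the 2 lines (-0.19 in Sem and -0.20 in Nalm6), and 0 rose in either. In Sem 1 member rose and 27 fell, with 20.3% of all genes higher and 21.3% lower; the 27 were 17 cytoplasmic enzymes, 7 mitochondrial enzymes and all 3 scaffold proteins. TPM rescaling gave 2 higher and 20 lower there, and quantile normalization 4 and 22. VARS fell most, to 23.8, 23.8 and 25.0 FPKM with ibrutinib, against 38.5, 40.1 and 40.8 untreated (-0.69 ± 0.042, adjusted p = 8.1e-07). AIMP2 and EEF1E1 fell by 0.54 and 0.53 on the log2 scale. The member that rose was QARS, with 65.8, 68.0 and 69.2 FPKM, against 58.4, 61.3 and 59.5 (0.18 ± 0.0336, adjusted p = 0.00155).

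In Nalm6 with ibrutinib 5 members rose, AARS, WARS, CARS, SARS and GARS, and 11 fell, with 4.98% of all genes higher and 7.45% lower. The 5 were listed ATF4 targets, and none of that list fell by limma (7 higher and 0 lower at an unadjusted p under 0.05). WARS had 19.2, 19.3 and 18.8 FPKM with ibrutinib, against 14.7, 14.5 and 15.8 untreated (0.33 ± 0.0408, adjusted p = 0.000902), and AARS 68.5, 65.7 and 63.2, against 54.4, 50.3 and 51.5 (0.33 ± 0.0523, adjusted p = 0.00298). VARS fell by 0.61, and QARS by 0.30. No mitochondrial enzyme rose and 7 fell (0 and 11 at an unadjusted p under 0.05), SARS2 by 0.41 and WARS2 by 0.40. SARS2 averaged only 1.78 FPKM with ibrutinib and 2.69 untreated. It shares 349 of its 3231 exonic bases with MRPS12 on the opposite strand, listed at 11.9 to 35.7 FPKM. The part of such reads in any SARS2 value was not tested. With the replicate number as a block 2 rose, AARS and WARS, and 8 fell. The count of 16 called was 9 without untreated 1, 7 without untreated 3, and 8, 6 and 7 without ibrutinib 1, 2 and 3; it was 23 (10 higher and 13 lower) without the libraries that stood apart. TPM rescaling gave 7 higher and 5 lower, and quantile normalization 6 and 7.

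WARS in Sem with ibrutinib had 7.35, 8.66 and 7.74 FPKM, against 8.49, 8.99 and 9.74 untreated. These groups overlapped, and their difference (-0.18 ± 0.0559, adjusted p = 0.0258) no longer passed when untreated 3, ibrutinib 1 or ibrutinib 3 was omitted (adjusted p = 0.0753 to 0.101) or with TPM (0.167). NARS with ibrutinib had 47.0, 50.7 and 46.1 FPKM in Sem, against 55.4, 55.8 and 55.7 (-0.21 ± 0.0347, adjusted p = 0.000633). Nalm6 libraries had 72.6, 73.0 and 74.7, against 66.8, 74.7 and 63.5 untreated, so that the groups were not separated (0.11, adjusted p = 0.464).

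With the combination, most mitochondrial enzymes and all scaffold proteins were lower than in untreated cells, and the cytoplasmic enzymes were divided. In Sem 10 rose and 23 fell (26.6% of all genes higher and 26.3% lower), and in Nalm6 5 rose and 27 fell (32.4% and 31.3%). Quantile normalization moved the splits to 13 and 18 in Sem and 8 and 21 in Nalm6; with TPM, which put the median of all genes at 0.11 and 0.19, they were 12 and 19, and 7 and 22. Of the cytoplasmic enzymes 9 rose and 8 fell in Sem, and 4 rose and 13 fell in Nalm6. Of the mitochondrial enzymes 1 rose and 12 fell in Sem, and 1 rose and 11 fell in Nalm6, and all 3 scaffold proteins fell in both lines. Without the libraries that stood apart 5 members rose and 30 fell in Nalm6.

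WARS again led, with 30.5, 30.3 and 30.3 FPKM in combination libraries of Sem, against 8.49, 8.99 and 9.74 untreated (1.64 ± 0.0559, adjusted p = 5.15e-09). In Nalm6 it had 61.8, 64.9 and 64.1, against 14.7, 14.5 and 15.8 (2.01 ± 0.0408, adjusted p = 2.88e-10). SARS had 57.1, 58.1 and 58.2 FPKM in Sem, against 36.6, 35.4 and 38.5 (0.64), and 80.0, 72.6 and 72.1 in Nalm6, against 47.6, 49.6 and 48.2 (0.61). AARS rose by 0.71 in Sem and 0.76 in Nalm6. VARS had 18.3, 19.0 and 17.9 FPKM in Sem, against 38.5, 40.1 and 40.8 (-1.07 ± 0.042, adjusted p = 1.41e-08). Its Nalm6 values were 11.1, 14.3 and 15.3, against 44.9, 36.6 and 42.2 (-1.55 ± 0.121, adjusted p = 8.67e-07). WARS2 fell by 0.43 in Sem and 0.91 in Nalm6, so the WARS to WARS2 ratio was 6.97 ± 0.55 with the combination and 1.45 ± 0.065 untreated in Sem, and 28.2 ± 4.8 and 2.91 ± 0.14 in Nalm6 (SD, n = 3).

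KARS had 34.6, 33.8 and 32.5 FPKM in combination libraries of Nalm6, against 67.2, 69.4 and 65.0 untreated, a fall of 0.98 on the log2 scale. FARSB fell by 1.22, FARSA by 1.11 and RARS by 0.90 there. Among mitochondrial enzymes EARS2 fell by 0.98, MARS2 and WARS2 by 0.91, LARS2 by 0.88, YARS2 by 0.83 and SARS2 by 0.81. EEF1E1 fell by 0.89 and AIMP2 by 0.54. In Sem the largest of these falls were FARSA (0.65), FARSB (0.63), KARS (0.53), YARS2 (0.53) and EARS2 (0.50). NARS was not called with the combination in either line (log2 change 0.03 in Sem, adjusted p = 0.527, and -0.05 in Nalm6, adjusted p = 0.631). Combination 1 of Nalm6, the library that stood apart, had 76.1 FPKM of NARS, while the other 2 had 61.4 and 60.8.

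Adding ibrutinib to asparaginase lowered synthetase genes in both lines. Set against asparaginase alone, 1 member rose and 27 fell in Sem (18.6% of all genes higher and 19.8% lower), and 0 rose and 22 fell in Nalm6 (9.80% and 12%; 0 and 25 at an unadjusted p under 0.05, and also 0 and 25 called without the libraries that stood apart). WARS with the combination was lower than with asparaginase by 0.78 in Sem and 0.29 in Nalm6, VARS by 0.95 and 0.81, and YARS by 0.59 and 0.45. AARS did not differ beyond its error (-0.04 in Sem, adjusted p = 0.533, and -0.01 in Nalm6, adjusted p = 0.919). QARS in Sem was the member that rose, with 69.4, 72.7 and 73.0 FPKM with the combination, against 57.2, 56.5 and 55.3 with asparaginase (0.34 ± 0.0336, adjusted p = 1.73e-05).

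Adding asparaginase to ibrutinib raised 11 and lowered 4 of the 20 cytoplasmic enzymes in Sem, and lowered most members in Nalm6. Set against ibrutinib alone, 12 members rose and 6 fell in Sem (4.82% of all genes higher and 7.30% lower), and 5 rose and 27 fell in Nalm6 (29.5% and 27.6%; 6 and 29 without the libraries that stood apart). The 6 that fell in Sem were VARS, FARSB, FARSA and KARS, cytoplasmic enzymes outside the list of ATF4 targets, and the mitochondrial enzymes IARS2 and EARS2. In Sem 11 of the 12 were listed ATF4 targets, with WARS at 1.82, SARS at 0.75, AARS at 0.66 and CARS and GARS at 0.59 each. In Nalm6 WARS (1.68), AARS (0.43), SARS (0.43), CARS (0.22) and VARS2 (0.24) rose, and FARSB (-1.16), VARS (-0.94), FARSA (-0.90) and RARS (-0.85) had the most negative changes. These comparisons share the combination libraries with those above.

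The interaction, which is the combination's change minus the sum of the single-drug changes, was negative for every member called in the FPKM fit. In Sem 4 members were called, all lower, WARS (-0.60 ± 0.079, adjusted p = 0.00427), SARS (-0.39), MARS (-0.28) and YARS (-0.27), with 0.760% of all genes higher and 0.760% lower. In Nalm6 10 were called lower and 0 higher (2 higher and 14 lower at an unadjusted p under 0.05), with 2.98% of all genes higher and 2.58% lower. LARS (-0.69 ± 0.0951, adjusted p = 0.00277), WARS (-0.62 ± 0.0577, adjusted p = 0.000261), IARS (-0.52 ± 0.0599, adjusted p = 0.0009), CARS (-0.45), YARS (-0.40) and GARS (-0.38) led. All 10 were cytoplasmic enzymes of the ATF4 list except AIMP2. For LARS in Nalm6 the means were 19.1 ± 0.972 FPKM with asparaginase, 20.1 ± 0.644 with ibrutinib, 13.3 ± 1.3 with the combination and 17.4 ± 0.895 untreated. No mitochondrial enzyme was called in either line in that fit (0 in Sem, and 2 higher in Nalm6, at an unadjusted p under 0.05). Correction for GC content and length gave 17 in Nalm6, of which 2, both mitochondrial enzymes, were higher and 15 lower, and omission of the 3 libraries that stood apart gave 16, and the Sem count was 10 with TPM and 9 with quantile normalization.

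The response of the members to asparaginase was more positive in Sem than in Nalm6. Tested as the difference of the 2 effects, 21 members were higher in Sem and 0 lower (21 and 1 at an unadjusted p under 0.05), with 17.7% of all genes higher and 15.7% lower; TPM gave 17 and 0, and quantile normalization 15 and 2. The 21 were 14 cytoplasmic enzymes, 6 mitochondrial enzymes and AIMP2. YARS, the tyrosyl enzyme, averaged 44.1 ± 1.33 FPKM with asparaginase and 29.4 ± 0.331 untreated in Sem, but 37.2 ± 0.672 and 41.0 ± 1.07 in Nalm6 (difference of effects 0.71 ± 0.0442, adjusted p = 9.61e-10). The difference was 0.70 ± 0.0608 for GARS (adjusted p = 5.79e-08), 0.67 ± 0.0924 for FARSB (1.69e-05), 0.64 ± 0.0634 for EPRS, the joint glutamyl and prolyl enzyme (3.71e-07), 0.62 ± 0.0686 for LARS2 (1.22e-06) and 0.62 ± 0.0832 for NARS2 (1.33e-05). WARS (0.11, adjusted p = 0.212), AARS (-0.03, adjusted p = 0.794) and NARS (0.16, adjusted p = 0.215) were not called.

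**Figure D4:**
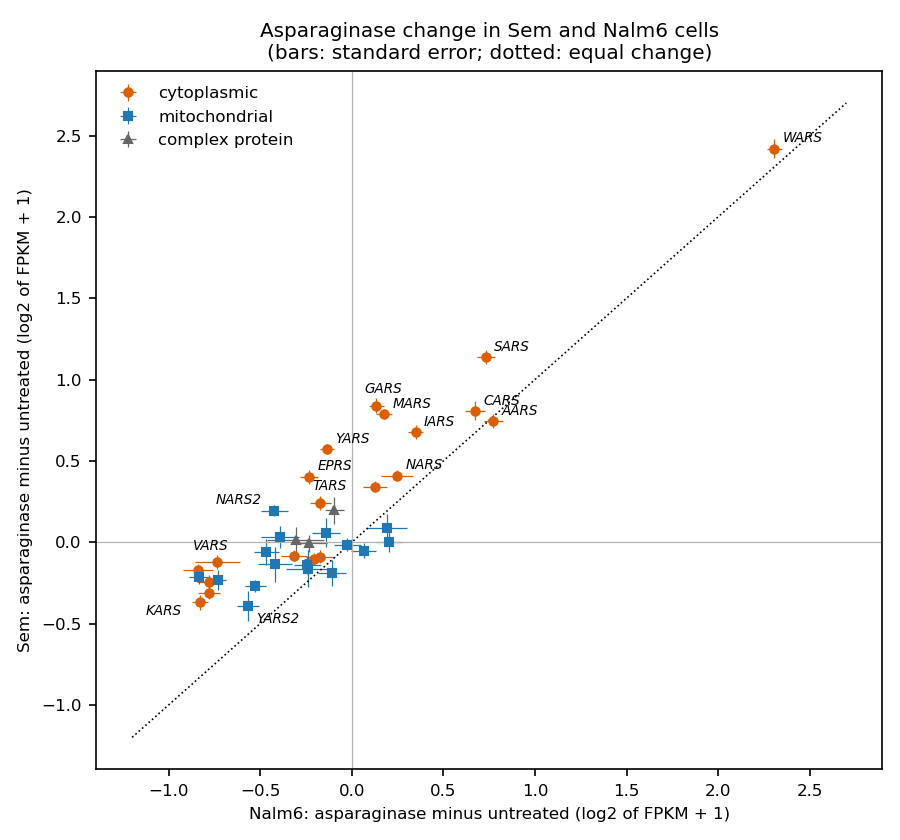
Log2 change with asparaginase in Sem (vertical axis) against that in Nalm6 (horizontal axis) for the 39 genes, with standard errors as bars; colour and shape give the role, and the dotted line marks equal change. Most points lie above the line, as YARS (0.57 in Sem and -0.14 in Nalm6), while AARS and WARS lie near it.

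For ibrutinib the difference ran the other way. Its effect was higher in Sem for 1 member and lower for 16 (7.55% of all genes higher and 6.09% lower), and quantile normalization gave 2 and 9. The 16 were 14 cytoplasmic enzymes, AIMP1 and AIMP2, and no mitochondrial enzyme was called (1 higher and 0 lower at an unadjusted p under 0.05). WARS differed by -0.51 ± 0.0673 (adjusted p = 3.28e-05), AIMP2 by -0.47, GARS by -0.39, AIMP1 by -0.37 and CARS by -0.37. QARS, the member with a higher effect in Sem, differed by 0.48 ± 0.0787 (adjusted p = 0.000326): its means were 67.7 ± 1.72 FPKM with ibrutinib and 59.7 ± 1.47 untreated in Sem, and 33.3 ± 0.407 and 41.2 ± 0.83 in Nalm6.

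For the combination 23 members had a higher effect in Sem and 2 a lower one (22.2% of all genes higher and 18.6% lower). QARS led, at 0.73 ± 0.0787 (adjusted p = 4.89e-07), with EPRS at 0.69, FARSB at 0.60, YARS at 0.56, EEF1E1 at 0.55 and EARS2 at 0.49. The 2 lower ones were WARS (-0.37 ± 0.0673, adjusted p = 0.000193) and VARS2 (-0.27).

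Partners of the synthetases were read from a list of 21 genes of tRNA export, tRNA maturation, elongation and mitochondrial charging, of which 18 were tested in Sem and 19 in Nalm6. With asparaginase 1 rose and 9 fell in each line, while 11.4% of all genes rose and 15.1% fell in Sem, and 28.2% rose and 28.0% fell in Nalm6. XPOT, the exportin that carries tRNA out of the nucleus, was the one that rose, to 71.2 ± 1.89 FPKM in Sem, against 41.0 ± 1.42 untreated (0.78 ± 0.0353, adjusted p = 7.9e-08), and to 57.8 ± 1.75 in Nalm6, against 38.3 ± 1.05 (0.58 ± 0.0423, adjusted p = 9.43e-07). SSB, which binds newly made tRNA, averaged 41.4 ± 1.68 FPKM with asparaginase and 55.5 ± 0.957 untreated in Sem, and 29.5 ± 4.36 and 59.6 ± 8.52 in Nalm6 (-0.41 and -0.99). The mitochondrial elongation factors TUFM and TSFM changed by -0.38 each in Sem and by -0.78 and -0.89 in Nalm6.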

How the data were processed

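The data were RNA sequencing values of 24 libraries. The deposited unit was FPKM per gene (with gene length in bases), made by the authors from reads processed with fastp, STAR and featureCounts on hg38, per the submitters' processing notes; versions are not given in the sources used here. All 299165 deposited values of 1 or more had lost their decimal point. Values under 1 gave the FPKM of 1 read in each library; for damaged values, the powers of 10 giving whole reads (tolerance 1e-06 reads) were scored jointly over the libraries of a line, and the most probable was taken. No damaged value lacked such a solution, 509 values in 277 genes had a posterior under 0.99, and the lowest posterior among members was 0.999. At the median library 1 read in 1 kb stood for 0.0601 FPKM. Library scaling factors of 0.919 to 1.093 lie in the deposited values, by a method not given in the sources used here.

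Genes with at least 1 FPKM in at least 3 libraries were fitted with limma 3.58.1 (R 4.3.3), trend on, on log2(FPKM + 1), which understates changes of low genes; 13237 genes in Nalm6, 13417 in Sem and 15116 over both lines. Fits used 12 libraries of a line (8 residual degrees of freedom) or all 24 (16). Scripts were tested on simulated data. In simulated damage 99.9% of values were restored correctly. Of 80 genes changed with the combination alone, 79, 76, 52 and 67 were restored correctly at 2-, 4-, 8- and 16-fold. The scoring favoured combination changes near the sum of the single-drug changes. This limit may bear on the shares of all genes in the interaction. Count tests were not used because only restored FPKM was at hand. Members, lists and the naming rule (NARS, QARS, WARS; the 3 cytoplasmic and 2 mitochondrial enzymes with the largest asparaginase change per line; members called with a log2 change of at least 0.5; up to 6 per interaction or line difference) were chosen with earlier results of these data known, so their counts are descriptions; other members named were chosen after their values were seen. Replicate numbers are shared between groups in the labels, and no source used here states that they pair libraries. Deviations of same-numbered asparaginase and combination libraries of Nalm6 from their group means correlated by 0.37, 0.10 and 0.18. Each was over 0.1, which was true of no other pair of groups. Yet asparaginase 2 with combination 3, and asparaginase 3 with combination 2, also reached 0.11, so these values do not settle a pairing. The reported fits used no replicate block. Alternatives are given at the close. Figures used matplotlib. Gene coordinates are those of the deposited table, and 58724 genes had the same start and end in GENCODE 29.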

Additional observations from a re-analysis of the deposited data

Results flagged for a closer look

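The effects of a drug differed between the lines for the members below (limma, difference of effects, Sem minus Nalm6, adjusted p under 0.05; at most 6 per drug, largest first). With asparaginase the differences were 0.71 for YARS, 0.70 for GARS, 0.67 for FARSB, 0.64 for EPRS and 0.62 for both LARS2 and NARS2. With ibrutinib they were -0.51 for WARS, 0.48 for QARS, -0.47 for AIMP2, -0.39 for GARS and -0.37 for both AIMP1 and CARS. With the combination they were 0.73 for QARS, 0.69 for EPRS, 0.60 for FARSB, 0.56 for YARS, 0.55 for EEF1E1 and 0.49 for EARS2. Among these, changes called in opposite directions in the 2 lines were those of YARS, EPRS and NARS2 with asparaginase, of WARS, QARS, GARS and CARS with ibrutinib, and of QARS and EPRS with the combination. Several of these calls in a single line were lost under an alternative. With ibrutinib in Nalm6, that of CARS was lost with each of the 6 libraries left out in turn, that of GARS with each except untreated 1, and that of QARS with each except untreated 2. CARS and GARS were also lost there with the replicate block (adjusted p = 0.0770 and 0.0549) and with no filter on low values (0.0686 and 0.0524), and QARS with TPM (0.0657) and quantile normalization (0.188). With ibrutinib in Sem, the calls of WARS and CARS were lost with TPM (0.167 and 0.125) and with any of 3 libraries left out, and that of CARS with no filter (0.0518). In Nalm6, that of QARS with the combination was lost with quantile normalization (0.0604), that of EPRS with asparaginase with TPM (0.241), and that of YARS with asparaginase without untreated 3 (0.0534) or asparaginase 3 (0.0532). TPM rescaling and quantile normalization turn the Nalm6 direction of YARS with asparaginase, and quantile normalization that of EPRS.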

How the results depend on the processing

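Counts of members called stayed within 1.5 times of the reported ones under every alternative tried, except as follows. With ibrutinib in Nalm6 the count of 16 was 10 with the replicate block (2 higher and 8 lower), and 6 to 14 when 1 library was left out. The Nalm6 interaction count of 10 was 17 (2 higher) with the GC and length correction, 16 with the replicate block and that correction together, and 16 without the libraries that stood apart, an alternative chosen after seeing the data. The Sem interaction count of 4 was 10 with TPM, 9 with quantile normalization, 7 with the GC and length correction with or without the replicate block, and 7 with all 24 libraries in 1 fit. The line difference in the ibrutinib effect was 11 in place of 17 with quantile normalization. The causes were not tested. Directions turned mostly under the other scalings. In Nalm6 with asparaginase, EPRS (0.059), TARS (0.11) and YARS (0.13) turned with quantile normalization, and YARS (0.015) with TPM. With the combination in Nalm6, DARS (0.11) and MARS (0.048) turned with quantile normalization, and NARS turned to 0.12 with TPM, 0.30 with quantile normalization, 0.063 with the GC and length correction with or without the replicate block, while leaving out 1 library in turn gave -0.16 to 0.014, above 0 without untreated 2 (0.014) or combination 3 (0.0049). For combination against ibrutinib in Nalm6, IARS (0.036), NARS (0.081) and QARS (0.00080) turned with quantile normalization. In Sem, DARS (0.0066), LARS (0.045) and SARS (0.030) turned with ibrutinib, and DARS (0.025) and TARS (0.087) with the combination, all with quantile normalization; QARS with asparaginase turned to 0.0049 with TPM and 0.050 with quantile normalization. NARS turned in the line difference for asparaginase (-0.047, quantile) and the combination (-0.00092 with TPM, -0.054 with quantile). Deviations of same-numbered libraries from their group means correlated between -0.19 and 0.37 in Nalm6 and between -0.027 and 0.10 in Sem. Those of differently numbered libraries reached 0.31 in Nalm6 and 0.090 in Sem, so the numbers were not taken to pair samples. For combination against asparaginase in Nalm6, where each same-numbered pair was over 0.1, the replicate block called 22 members, as many as without it. Apart from the count above, the replicate block moved no count by over 1.5 times.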
